A study of Mus musculus with 4 samples.

Results

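The genes described are Zbtb16, Tbx21, Maf, Nkg7, Xcl1, Klrd1, Sox13, Cxcr6 and Gzma, markers of natural killer T (NKT) cells, of gamma-delta T cells and of cytotoxic effector T cells. They were taken as every probe set whose platform annotation gives one of these symbols alone, which gave 17 of 45037 probe sets for 9 of 18193 named genes. Expression was measured on Affymetrix arrays in RNA from total thymocytes, that is, unsorted thymus cells, of 2 Atg16l1 hypomorph and 2 control mice, 1 array per mouse. Hypomorph mice carry a mutant Atg16l1 allele with reduced function, and the labels call the control mice wild type in their description of the study. All mice were 7 weeks old. Each group held 1 male and 1 female, and the animals were independent, but sex is not assigned to the arrays. Neither the strain nor the construction of the allele is given in the sources used here. The product of Atg16l1 directs the lipidation of LC3 proteins on growing autophagosomes.

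NKT cells are T cells with a nearly invariant receptor that recognise lipids on CD1d. They leave the main line of thymocyte development and take on effector functions in the thymus, under the transcription factor PLZF, the product of Zbtb16. Gamma-delta T cells and NKT cells that make interferon gamma use T-bet, and those that make interleukin-17 use c-Maf, with SOX13 among the early factors of the gamma-delta branch in mice. Natural killer (NK) cells share T-bet, Nkg7, Xcl1, Klrd1 and Gzma with these T cells, so these 5 genes do not mark a single cell type.

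Of the 17 probe sets, 11 passed the filter, a mean over all arrays at or above the median of all probe sets, with at least 1 for each of the 9 genes, and 6 were too dim to be tested. None of the 11 passed an adjusted p of 0.05 between hypomorph and control thymocytes in limma (0.255 to 0.739), where 14 of all 22519 tested probe sets passed (0.0622%). At an unadjusted p under 0.05, 1 of the 11 was lower and 0 were higher, against 1.19% and 14.9% of all tested probe sets. Even so, the 9 genes did not sit together. Tbx21, Nkg7, Xcl1 and the brighter Maf probe set had lower centred values on both hypomorph arrays than on both control arrays, Zbtb16 and Klrd1 had lower means with overlapping groups, and Sox13, Cxcr6 and Gzma had higher means.

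The arrays differed in brightness, with median deposited signals of 38.4 and 27.4 in hypomorph mice, against 23.5 and 27.4 in control mice. Each array was therefore centred on the common median of log2(signal + 2.29), and all changes below are hypomorph minus control on that scale, which understates changes of dim probe sets. After centring, the median change of all tested probe sets was still 0.18, so changes are also given relative to it. The p-values, confidence intervals and shares of groups that do not overlap carry this offset. When arrays were centred on the tested probe sets instead, that median was 0.01. In limma, 5 of the 11 probe sets then had an unadjusted p under 0.05, all lower. Of all 22519 tested probe sets 1693 did so in either direction, and none of the 11 passed after adjustment. Atg16l1 itself had signals of 108 and 70.8 in hypomorph mice, against 184 and 241 in control mice. Thymocyte genes were bright, with signals for Cd4 of 2337 and 1808 in hypomorph mice, against 1034 and 1546 in control mice. With 2 arrays against 2, only large changes can pass, and in bulk RNA fewer cells of a type and less RNA per cell cannot be told apart.

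**Figure D1:**
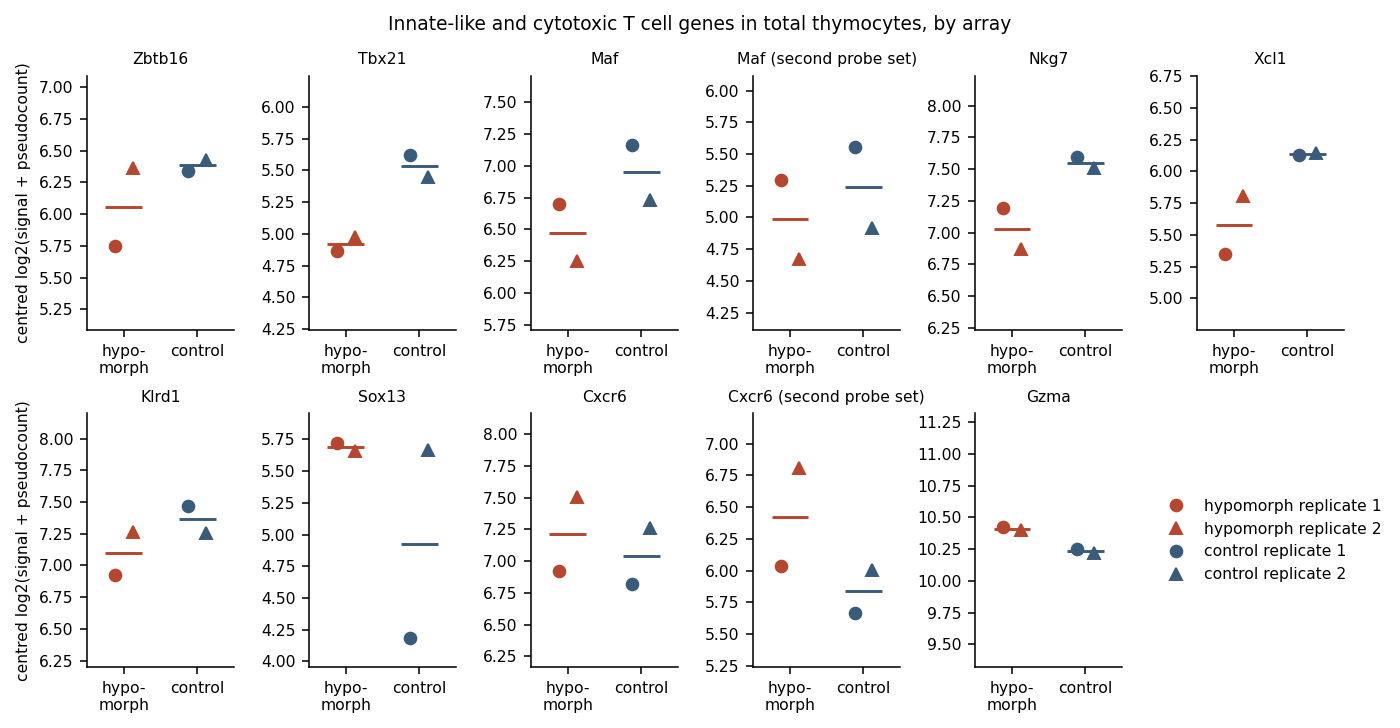
Centred log2(signal + pseudocount) on the vertical axis for the 11 tested probe sets, by array, hypomorph left of control, with replicates as circles and triangles, group means as lines and every panel spanning 2 log2 units. Tbx21, Nkg7, Xcl1 and the brighter Maf probe set lie lower on both hypomorph arrays, the control arrays differ most for Sox13, and the arrays of each group nearly coincide for Gzma.

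Tbx21 encodes T-bet, the transcription factor that drives interferon gamma production and the last step of type 1 NKT cell maturation. Its only probe set had deposited signals of 36.0 and 27.9 in hypomorph mice, against 38.6 and 39.4 in control mice. Both hypomorph arrays lay below both control arrays, before and after centring. The centred means were 4.92 ± 0.08 in hypomorph and 5.53 ± 0.12 in control thymocytes (SD, n = 2 each). The change of -0.61 ± 0.31 (SE) corresponded to a hypomorph level 0.655 times that of controls (95% confidence interval 0.410 to 1.05, adjusted p in limma 0.339). Relative to the median of the tested probe sets it was -0.79, the lowest value among the 11. The probe set was dim, with a mean over all arrays of 5.23 where the filter lay at 4.87. On the hypomorph arrays its signals were close to the array medians of 38.4 and 27.4.

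Maf encodes c-Maf, a basic leucine zipper factor of interleukin-17-producing innate-like T cells that macrophages also use. Its brightest probe set had signals of 134 and 70.5 in hypomorph mice, against 117 and 99.5 in control mice. These signals overlapped, while after centring the values were 6.70 and 6.25 in hypomorph mice, against 7.17 and 6.73 in control mice, lower on both hypomorph arrays by a margin of 0.03 at the least. The change was -0.47 ± 0.24 (SE, adjusted p in limma 0.338). It was -0.25 when hypomorph replicate 2 was left out and -0.26 when control replicate 1 was left out. Leaving out hypomorph replicate 1 gave -0.70 and leaving out control replicate 2 gave -0.69. The second tested Maf probe set had signals of 49.2 and 22.1 in hypomorph mice, against 36.8 and 26.7 in control mice, with a change of -0.25 ± 0.37 (adjusted p 0.739), and its groups overlapped.

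Zbtb16 encodes PLZF, the factor that gives NKT and other innate-like T cells their effector programme. Its tested probe set had signals of 68.1 and 76.4 in hypomorph mice, against 65.2 and 80.2 in control mice. After centring, hypomorph replicate 1 was low at 5.75, while hypomorph replicate 2 at 6.36 lay among the control values of 6.34 and 6.43. The change was -0.33 ± 0.26 (SE, adjusted p 0.520), and without hypomorph replicate 1 it was -0.02. Omitting hypomorph replicate 2 gave -0.64. The other Zbtb16 probe sets, both under the filter, pointed in opposite directions. In the fit without a filter, 1 had a change of 0.73 ± 0.55, with signals of 28.8 and 31.2 in hypomorph mice, against 18.5 and 9.15 in control mice. The other, of a type whose name marks possible cross-hybridisation, had one of -0.85 ± 0.60. Neither passed in limma (adjusted p 0.650 and 0.623), so the array gave no single direction for Zbtb16.

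Nkg7 encodes a membrane protein of cytotoxic granules that is needed for their release. Its probe set had signals of 189 and 110 in hypomorph mice, against 158 and 172 in control mice. Hypomorph replicate 1, the array with the brightest median, had the highest signal before centring, and after centring both hypomorph arrays, at 7.19 and 6.87, lay below both control arrays, at 7.59 and 7.51. The hypomorph level was 0.699 times that of controls (95% confidence interval 0.528 to 0.925), a change of -0.52 ± 0.18 (SE). It had the smallest p of the 11, at 0.0168 unadjusted and 0.255 adjusted in limma. Without centring the change was -0.19.

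Xcl1 encodes lymphotactin, a chemokine that activated T and NK cells release and that attracts XCR1-bearing dendritic cells. Its signals were 51.3 and 51.3 in hypomorph mice, against 56.0 and 65.6 in control mice. The groups did not overlap on deposited or on centred values. The change was -0.56 ± 0.27 (SE), or 0.679 times the control level (95% confidence interval 0.450 to 1.02, adjusted p in limma 0.326). Leaving out hypomorph replicate 1 brought it to -0.33 and leaving out hypomorph replicate 2 to -0.79.

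Klrd1 encodes CD94, which pairs with NKG2 chains to form receptors for non-classical MHC class I. Its signals were 157 and 145 in hypomorph mice, against 145 and 144 in control mice, nearly equal on all arrays as deposited. After centring the values were 6.93 and 7.26 in hypomorph mice, against 7.47 and 7.26 in control mice, and the groups overlapped. The change was -0.27 ± 0.19 (SE, adjusted p in limma 0.478), and on uncentred values it was 0.06. Without hypomorph replicate 1 it was -0.10, and quantile normalization gave -0.45. Omitting hypomorph replicate 2 gave -0.44, and omitting control replicate 1 gave -0.16.

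Gzma encodes granzyme A, a serine protease of cytotoxic granules. It had signals of 1798 and 1289 in hypomorph mice, against 1014 and 1136 in control mice. The centred means, 10.41 ± 0.02 in hypomorph and 10.24 ± 0.03 in control thymocytes (SD, n = 2 each), did not overlap, and the SE of the change was the smallest of the 11. Yet the change of 0.17 ± 0.13 (SE, adjusted p 0.484) lay within 0.01 of the median change of all tested probe sets. Its 95% confidence interval ran from -0.10 to 0.45, or up to 1.37-fold. With quantile normalization it was -0.054.

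Cxcr6 encodes the receptor for CXCL16, carried by NKT cells and effector T cells. Its brighter probe set had signals of 157 and 172 in hypomorph mice, against 91.8 and 145 in control mice, which overlapped after centring. The change was 0.17 ± 0.24 (SE, adjusted p in limma 0.720), within 0.01 of the median of all tested probe sets. The second Cxcr6 probe set had signals of 84.1 and 105 in hypomorph mice, against 40.0 and 59.3 in control mice. It did not overlap, with a change of 0.59 ± 0.29 (adjusted p 0.337). That value rested on hypomorph replicate 2, without which it was 0.20, while omitting hypomorph replicate 1 gave 0.97, and the groups were separated by 0.03 on the centred scale.

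Sox13 encodes an SRY-box factor of gamma-delta T cell precursors that make interleukin-17. Its signals were 67.0 and 46.0 in hypomorph mice, against 12.8 and 46.4 in control mice. Only control replicate 1 stood apart, and the other 3 arrays had centred values of 5.66 to 5.72. The change of 0.76 ± 0.43 (SE, adjusted p 0.385), the highest of the 11, was 0.02 when control replicate 1 was left out and 1.51 when control replicate 2 was left out. Granulocyte markers were also lowest on control replicate 1, with a summed centred signal of 2200 and 3672 in hypomorph mice, against 642 and 5774 in control mice over 7 measured genes. S100a8, a calcium-binding protein of granulocytes, had signals of 1401 and 1760 in hypomorph mice, against 263 and 2723 in control mice. Of 6 tested granulocyte markers 5 had a change above 0 and 1 below, where 17.5% of all tested genes were below 0. Their median was 0.49, against 0.21 for all tested genes. Their part in the Sox13 value was not tested.

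The 6 probe sets under the filter belong to Maf and Zbtb16 and had signals of 1.11 to 41.8. Their changes in the fit without a filter ranged from -1.01 to 0.73, with 0 at an unadjusted p under 0.05 and adjusted p-values of 0.623 to 0.981 in limma. The 4 dim Maf probe sets had changes of 0.06, -0.38, -0.36 and -1.01. The last rested on a signal of 1.11 on hypomorph replicate 2, against 23.1 on hypomorph replicate 1 and 10.7 and 14.7 on the control arrays. In that fit the 17 probe sets had a median change of -0.33, 0.43 under that of all 45037, and 12 of them lay below the latter. None was called in limma, against 0.00888% of all probe sets in that fit, and 1 had an unadjusted p under 0.05.

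**Figure D2:**
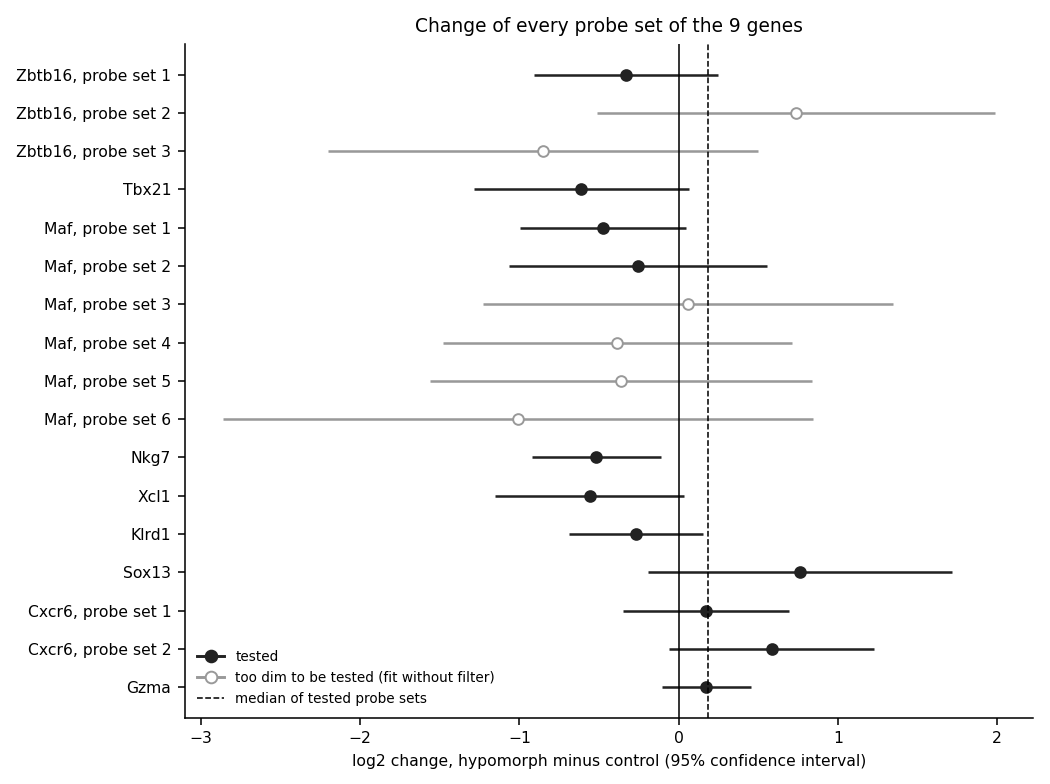
Log2 change, hypomorph minus control, on the horizontal axis with its 95% confidence interval for all 17 probe sets, numbered by mean signal within a gene. Filled points were tested and open points were too dim, the dashed line marks the median of all tested probe sets (0.18), and the interval of Nkg7 alone lies wholly on one side of 0.

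The 11 tested probe sets had a median change of -0.27, or -0.45 relative to all tested probe sets. Of them 9 lay below the median of all tested probe sets, with Gzma and the brighter Cxcr6 probe set within 0.01 of it, and 7 had a change below 0, against 24.4% of all tested probe sets. The groups did not overlap with hypomorph values lower for 4 of 11 (36.4%, against 7.04% of all tested probe sets) and with hypomorph values higher for 2 of 11 (18.2%, against 43.8%). The 9 genes were chosen with results of these arrays known, so these shares describe them and are not evidence that innate-like T cell genes behave differently from others. Left-out arrays moved the median: it was -0.31 without hypomorph replicate 1, -0.41 without hypomorph replicate 2, -0.29 without control replicate 1 and -0.60 without control replicate 2.

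Relative to the median of all probe sets, some alternatives repeat the main value by construction. They are dropping the centring, centring on the tested probe sets, dropping the variance trend and adding the replicate block. Counting these, 7 of the 11 were below 0 under all of the 13 or 14 alternatives in which they were tested. These were the probe sets of Tbx21 (-0.92 to -0.65), Xcl1 (-0.95 to -0.54), Nkg7 (-0.89 to -0.52), Zbtb16 (-0.80 to -0.23) and Klrd1 (-0.60 to -0.29), the brightest of Maf (-0.91 to -0.39) and its second (-0.79 to -0.07). Only the second Cxcr6 probe set was above 0 under each alternative (0.04 to 0.76). Sox13 was above 0 in 12 of 13, without control replicate 1 being the exception. The lowest adjusted p that any of the 11 reached under any alternative was 0.120, for the second Cxcr6 probe set without hypomorph replicate 1.

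**Figure D3:**
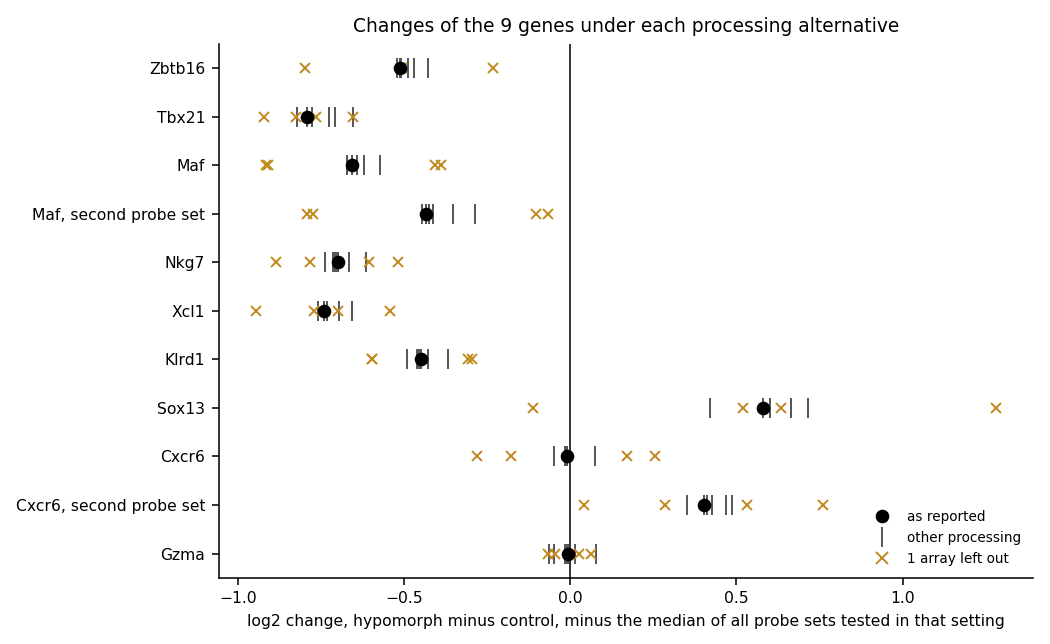
Change of each tested probe set minus the median of all probe sets tested, on the log2 scale, as reported (circles), under other processing (bars) and with 1 array left out (crosses). Tbx21, Xcl1 and Nkg7 stay below -0.5 throughout, while the crosses of Sox13 spread from -0.11 to 1.28.

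Promoters from the RefSeq promoter table (GRCm38.p6, 250 bases before to 50 after a gene's start, given 5′ to 3′) were held for 6 of the 9 genes, Sox13, Xcl1, Nkg7, Cxcr6, Tbx21 and Gzma. Those of Nkg7 and Xcl1, lower on both hypomorph arrays, and of Gzma and Cxcr6, which were not, are shown to set the effector genes side by side. Capitals mark the T-box element AGGTGTGA, the RUNX element TGTGGT and the ETS element AGGAAG, each searched on both strands. The RUNX element lies on the opposite strand in all 4 windows and so reads ACCACA there.
Nkg7, chr7:43436888-43437187, plus strand: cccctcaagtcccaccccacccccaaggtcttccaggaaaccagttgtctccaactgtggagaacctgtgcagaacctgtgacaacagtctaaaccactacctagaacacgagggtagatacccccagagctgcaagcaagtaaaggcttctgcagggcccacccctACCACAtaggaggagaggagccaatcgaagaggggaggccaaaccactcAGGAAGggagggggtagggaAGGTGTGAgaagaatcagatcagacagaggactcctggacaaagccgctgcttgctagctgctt
Xcl1, chr1:164935473-164935772, minus strand: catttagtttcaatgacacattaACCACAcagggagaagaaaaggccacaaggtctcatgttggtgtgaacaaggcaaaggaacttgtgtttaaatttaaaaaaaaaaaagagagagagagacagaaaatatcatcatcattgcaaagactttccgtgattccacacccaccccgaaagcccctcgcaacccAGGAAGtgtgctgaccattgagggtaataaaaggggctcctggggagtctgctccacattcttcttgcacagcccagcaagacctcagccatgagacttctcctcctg
Gzma, chr13:113100932-113101231, minus strand: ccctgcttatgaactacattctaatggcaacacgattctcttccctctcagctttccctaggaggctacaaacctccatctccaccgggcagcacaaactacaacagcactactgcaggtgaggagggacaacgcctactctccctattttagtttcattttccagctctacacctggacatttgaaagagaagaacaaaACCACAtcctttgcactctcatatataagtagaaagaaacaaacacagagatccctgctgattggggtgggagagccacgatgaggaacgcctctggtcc
Cxcr6, chr9:123806227-123806526, plus strand: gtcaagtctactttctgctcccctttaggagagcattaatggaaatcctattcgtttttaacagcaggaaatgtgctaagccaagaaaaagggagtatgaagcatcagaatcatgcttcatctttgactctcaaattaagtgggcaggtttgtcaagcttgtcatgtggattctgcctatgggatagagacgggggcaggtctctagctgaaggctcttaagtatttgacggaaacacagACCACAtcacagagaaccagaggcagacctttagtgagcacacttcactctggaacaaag

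The T-box element was in the Nkg7 window alone among the 6, 14 to 7 bases before the start, and in 1.28% of all 32851 windows. T-box factors such as T-bet recognise elements of this kind. The RUNX element was in these 4 windows and in neither of the other two, against 16.8% of all windows. The ETS element was in those of Nkg7, Xcl1 and Tbx21, against 35.4% of all. Of the other elements searched, the MAF core TGCTGA was in the windows of Xcl1 and Gzma (19.5% of all), the E-box CAGCTG in that of Tbx21 (16.3%) and the STAT element TTCNNNGAA in those of Nkg7 and Sox13 (8.30%). None of these elements overlapped within the 4 windows shown. A match describes the letters of the window and is not a bound site.

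The wider programme around the 9 genes was read from 5 gene lists, each gene by its brightest probe set. Over the 10235 tested genes, the median change was 0.21, 17.5% had a change below 0 and 4 were called (0.0391%). None of the 49 tested entries of the 5 lists was called in limma, and 5 had an unadjusted p under 0.05, 3 of them lower and 2 higher. For comparison, 0.889% of all tested genes were lower and 18.2% higher at that level.

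Granule proteins and effector ligands held 11 tested of 16 genes. Their median change was -0.07, with 7 of 11 below 0 and all 11 below the median of the tested genes. Ctsw, a cathepsin of cytotoxic lymphocytes, had signals of 382 and 355 in hypomorph mice, against 338 and 371 in control mice, with a change of -0.27. Gzmb, which encodes granzyme B, was at -0.44, Prf1, which encodes perforin, at -0.17 and Tnfsf10, the death ligand TRAIL, at 0.18. The adjusted p-values in limma were 0.389 and above for all 11. Ifng, which encodes interferon gamma, was too dim to be tested, with signals of 2.93 and 11.7 in hypomorph mice, against 3.21 and 14.99 in control mice.

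NK-type receptors and their adaptors held 6 tested of 15 measured genes, with a median change of -0.06. Klrk1, the activating receptor NKG2D, had signals of 48.6 and 11.96 in hypomorph mice, against 32.9 and 57.6 in control mice. Its centred values were lower on both hypomorph arrays, and its change of -1.10 (unadjusted p 0.0321, adjusted p 0.288) was the lowest of the 5 lists. Fcer1g, a signalling adaptor, was at -0.37, Tyrobp, the adaptor DAP12, at -0.10 and Klrg1, an inhibitory receptor, at 0.29.

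Type 1 regulators and cytokine receptors held 12 tested of 15 measured genes, with a median of -0.17 and 8 of 12 below 0. Cxcr3, a chemokine receptor gene that T-bet activates, had signals of 107 and 69.7 in hypomorph mice, against 139 and 115 in control mice. Its change was -0.87 (unadjusted p 0.00252, adjusted p 0.208). Eomes, a T-box factor related to T-bet, was at -0.77 with signals of 57.1 and 19.5 in hypomorph mice, against 34.3 and 63.0 in control mice, and its groups overlapped. Il18r1, a chain of the interleukin-18 receptor, was at 0.60, with a signal of 177 on hypomorph replicate 1 against 46.3 on hypomorph replicate 2 and 38.7 and 56.8 on the control arrays. Stat4, which acts downstream of interleukin-12, was at 0.24.

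The gamma-delta and interleukin-17 list held 9 tested of 10 measured genes, with a median of -0.04. Cd163l1, a scavenger receptor family gene known from interleukin-17-producing gamma-delta T cells in mice, had signals of 122 and 68.0 in hypomorph mice, against 112 and 113 in control mice. It was at -0.62 (unadjusted p 0.0149, adjusted p 0.253), with centred values lower on both hypomorph arrays. Its probe set is of the type whose name marks possible cross-hybridisation. Il17re, a receptor chain for interleukin-17C, was at -0.44 and Blk, a Src family kinase of B cells and gamma-delta T cells, at -0.42. Etv5, an ETS factor of the same gamma-delta cells, was at 0.50. The gamma chain variable gene Trgv4 was at 0.03, with signals of 851 and 602 in hypomorph mice, against 587 and 532 in control mice.

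Genes of NKT cell development held 11 tested of 14 measured genes, with a median of 0.12. Of them 2 of 11 were below 0, a share close to the 17.5% of all tested genes, and 7 of 11 were below the median of the tested genes. Egr2, a factor induced by T cell receptor signals, had signals of 337 and 344 in hypomorph mice, against 175 and 222 in control mice, a change of 0.45 (unadjusted p 0.0301, adjusted p 0.284). Tox, a nuclear factor of positively selected thymocytes, was at 0.29, Gata3 at 0.29 and the interleukin-7 receptor gene Il7r at 0.24. Cd1d1, which encodes the lipid-presenting molecule, and the SLAM family genes Slamf1 and Slamf6 were at 0.10, -0.03 and 0.15, genes that immature thymocytes also express.

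**Figure D4:**
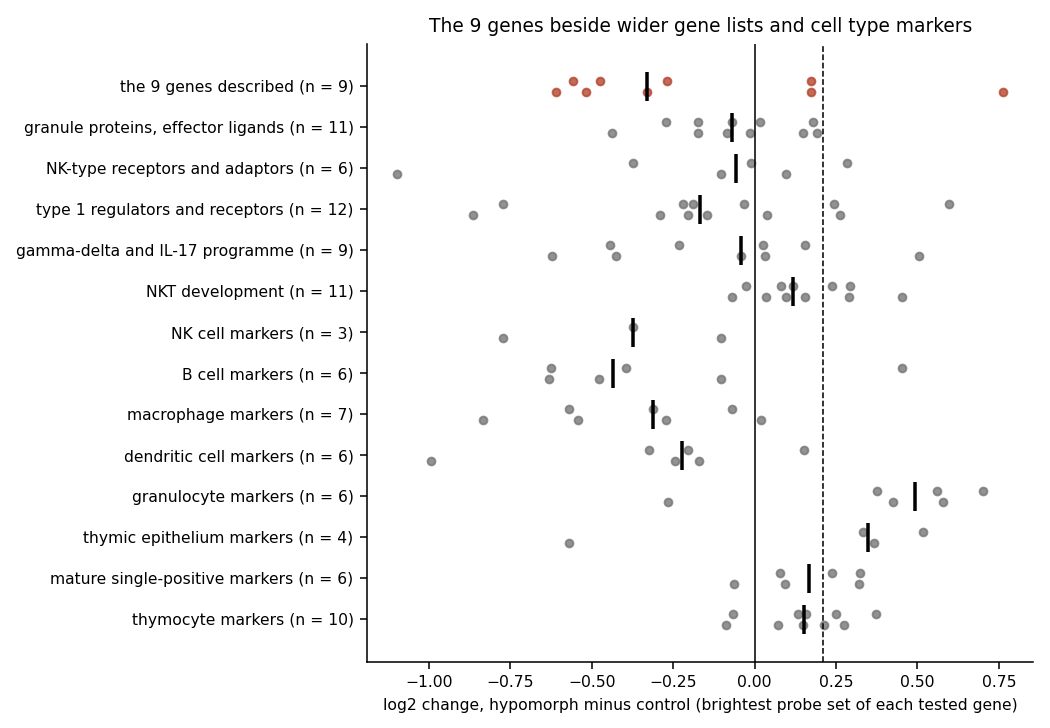
Log2 change, hypomorph minus control, for each tested gene of the 9 described, of the 5 wider lists and of the marker lists, with list medians as black bars and the median of all tested genes (0.21) as a dashed line. The 9 genes have a median of -0.33, NK, B cell, macrophage and dendritic cell markers have medians of -0.37, -0.44, -0.31 and -0.22, and thymocyte markers one of 0.15.

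Markers of other cells that share these genes were measured on the same arrays. Of the NK cell markers, 3 of 7 measured genes were tested (Eomes, Fcer1g and Tyrobp), with a median change of -0.37 and all 3 below 0. These 3 genes are also in the lists above, so this is not a separate reading. The summed centred signal of the 7 measured genes was 269 to 327 in hypomorph mice, against 337 to 414 in control mice. Tyrobp was the brightest of the 7, with signals of 237 and 151 in hypomorph mice, against 133 and 197 in control mice. Fcer1g had signals of 77.4 and 57.9 in hypomorph mice, against 70.7 and 67.7 in control mice. These adaptor genes made up most of the sum on every array, so it says little about the NK receptor genes. The receptor genes Klra1, Klra7 and Klre1 were too dim to be tested. The defining NK receptor gene Ncr1 was also too dim to be tested, with signals of 18.5 and 7.59 in hypomorph mice, against 9.44 and 23.7 in control mice. Macrophages, which express Maf, had 7 tested markers with a median of -0.31, 6 of them below 0. Summed over all 8 measured macrophage markers, the centred signal was 370 to 609 in hypomorph mice, against 569 to 658 in control mice. Csf1r, the receptor for macrophage colony-stimulating factor, was at -0.54 and the complement gene C1qa at -0.57.

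Of 6 tested B cell markers 5 were below 0, with a median of -0.44, and the 7 measured had a summed centred signal of 450 to 460 in hypomorph mice, against 544 to 677 in control mice. Ms4a1, which encodes CD20, was at -0.63 (unadjusted p 0.00845, adjusted p 0.244) and Cd79a, a signalling chain of the B cell receptor, at -0.63. Pax5 went the other way, at 0.45, with signals of 44.1 and 36.9 in hypomorph mice, against 24.2 and 20.9 in control mice. Of 6 tested dendritic cell markers 5 were below 0, and the 8 measured had a summed centred signal of 2952 to 3002 in hypomorph mice, against 3456 to 3700 in control mice. Most of that sum came from H2-Aa, H2-Eb1 and Cd74 on every array, so it says little about the dimmer markers. The invariant chain gene Cd74 was at -0.33 and the chemokine gene Ccl17 at -0.99, while Itgax was at 0.15. The 10 thymocyte markers had a median of 0.15, and the 6 tested markers of mature single-positive thymocytes one of 0.17, with the activation marker gene Cd69 at 0.32. Of 4 tested markers of thymic epithelium 3 were above 0 and 1 below, with a median of 0.35, where 17.5% of all tested genes were below 0. None of these markers passed in limma. The part of other cell types in the values of the 9 genes was not tested.

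Likeness over the 4 arrays was measured as the root mean square difference of log2 values after subtracting each gene's mean, among 10234 other tested genes. The genes closest to Tbx21 were Echdc3 (0.04), the B cell gene Ms4a1 (0.05) and Tcl1b1 (0.05), and Xcl1 was the closest of the other 8 genes described, at rank 73 (0.14). Closest to Nkg7 were Ttc39b (0.02), AW112010 (0.03) and Capg, an actin-capping protein (0.04), with Maf at rank 98 (0.13). For Sox13 the closest genes were Pglyrp1, a peptidoglycan recognition protein of granulocytes (0.08), Mapk7 (0.09) and Kif24 (0.09). Cxcr6, the closest of the other 8 described, was at rank 2784 (0.53). Closest to Gzma, whose values ranged over only 0.21, were 1810030O07Rik, Zfp217 and Arhgap9, each at 0.01. Klrd1, the closest to Gzma of the other 8 described, was at rank 8397 (0.26). With so few arrays many genes share a profile, and these ranks are descriptions.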

How the data were processed

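RNA was isolated with a Qiagen column kit and biotin-labelled, per the labels' protocols. The authors deposited a linear intensity (signal) for each probe set, computed in GCOS, Affymetrix software, as the submitters' processing notes name it. Neither a scaling target nor detection calls are given in the sources used here. Of 45101 probe sets, 64 array controls were left out. Genes were named from platform annotation where a probe set had 1 symbol.

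Arrays were centred on the common median of log2(signal + 2.29), where the added constant is the 10th percentile of all signals. The 22519 probe sets with a mean over all arrays at or above the median were tested with limma 3.58.1 in R 4.3.3 (two-sided, no covariates, eBayes with trended variance), with Benjamini-Hochberg adjustment over all of them and a threshold of 0.05. The procedure was checked on simulated data drawn without an overall shift or differences in array brightness, so that check does not cover these features of the arrays. Depth has no meaning for arrays, and their number limits the precision. The smallest p of an exact permutation test with these group sizes is 0.333.

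The 9 genes and all lists were chosen with earlier results of these data known. From each list the text names up to 4 genes with the smallest p, beside genes named for their role or direction after their values were seen (Ifng, Ncr1, Trgv4, Cd1d1, Slamf1, Slamf6, S100a8, Pax5, Itgax). List symbols were matched through annotation and RefSeq synonyms. Likeness is given for 4 of the 9 genes. Alternatives covered normalization, centring, pseudocount, filter, variance trend, replicate block and each array left out, and, chosen after seeing the data, scaling the arrays before adding the pseudocount.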

Additional observations from a re-analysis of the deposited data

How the results depend on the processing

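None of the 11 probe sets was called under any of the 14 alternatives, so the count of called probe sets of the 9 genes stayed at 0. At an unadjusted p under 0.05 in limma, 5 of the 11 passed when arrays were centred on tested probe sets, against 1693 of all 22519. With quantile normalization 4 of the 11 passed, against 1558 of all 22519. The other settings that kept all 4 arrays gave 1 to 3. Of 147 changes recomputed, 138 kept their direction. The filter, variance trend and replicate block settings leave a change as it was, so changes recomputed under them could not reverse. The brighter Cxcr6 probe set was at -0.0065 with quantile normalization and -0.0011 when arrays were centred on tested probe sets, and at -0.12 to 0.47 with 1 array left out. Gzma was at -0.054 with quantile normalization. Without centring Klrd1 was at 0.060 and the second Maf probe set at 0.075, which also ranged from -0.57 to 0.064 with 1 array left out. The median change of the tested probe sets of the 9 genes relative to all was -0.27 with the filter at the 75th percentile, which leaves 4 of them, and -0.60 to -0.29 with 1 array left out. Over all genes, 14 probe sets were called, against 7 when arrays were centred on tested probe sets, 4 after quantile normalization, 84 without centring, 4 without a filter, 0 without the variance trend (2492 at an unadjusted p under 0.05) and 8 to 340 with 1 array left out: 340 without hypomorph replicate 1, 58 without hypomorph replicate 2, 8 without control replicate 1 and 22 without control replicate 2. A fit with a single array in a group assumes that it varies like the other group. With the replicate number as a block 9 were called. The deviations of same-numbered arrays correlated at 0.08 over 2 pairs, too few to show whether the numbers pair the arrays, and the labels give no pairing beyond the number. Except where stated, the cause of these differences was not tested.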
